A study of Homo sapiens with 6 samples.

Results

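The semaphorins, plexins and neuropilins are a family of guidance ligands and their cell surface receptors, and their transcripts were compared in breast cancer cells with and without silencing of the transcription factor ZNF148. Members were set by a rule on gene symbols, as the rows of the deposited expression table named SEMA3 to SEMA7, PLXNA to PLXND, NRP1 or NRP2. They were chosen with earlier results of these data known. The rule gave 31 genes of 24108 rows, with 20 semaphorins, 9 plexins and 2 neuropilins. RNA-seq was carried out on total RNA of MDA-MB-231, a human basal, triple-negative breast cancer cell line, in 3 shCtr and 3 shZNF148 samples. All cells were transduced with lentivirus for 48 h and then selected in 0.5 µg/ml puromycin for 24 h. The shCtr cells carried an LKO hairpin against luciferase and the shZNF148 cells a hairpin against ZNF148, so both groups share the viral transduction and the drug selection. For ZNF148 the study lists 1 hairpin under the name used here, with the 21-base sequence shown because it defines the treated group:
shZNF148: cccttggtgaatgtaaatgat
An effect of ZNF148 loss and an effect particular to this hairpin cannot be told apart with 1 hairpin and 1 control. The replicates are numbered in the labels without saying whether they were separate cultures, so p-values measure the spread between these samples only, which may be technical.

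Semaphorins are secreted, membrane-spanning or lipid-anchored proteins first known as repellents of growing axons, and they also act on migrating epithelial, endothelial and tumor cells. Most bind directly to plexins, large receptors whose cytoplasmic part holds a GTPase-activating domain for small R-Ras and Rap proteins and thereby acts on integrin adhesion and the actin cytoskeleton. Most secreted class 3 semaphorins need a neuropilin as the binding co-receptor of a plexin A or D, and neuropilins also bind VEGF, so the same co-receptor serves guidance and growth factor signals. ZNF148, also called ZBP-89, is a zinc finger protein that binds G-rich promoter sequences and can repress or activate genes.

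The table gives FPKM, mapped fragments scaled to transcript length and to sequencing depth, which allows levels of different genes to be set side by side. Summed FPKM ranged from 469594 to 507312 per sample. Absolute depth is unknown, and the steps between low values place the relative depth at 0.806 to 1.12, with shCtr replicate 1 set to 1. ZNF148 was at 3.72, 4.36 and 4.30 FPKM in the shCtr samples and at 0.914, 0.282 and 0.834 FPKM in the shZNF148 samples, and fell by 1.63 on the log2 scale (SE 0.18, limma adjusted p = 0.0099). The 2 groups were apart, the shZNF148 mean was 16.4% of the shCtr mean, and the adjusted p was 0.0673 without shCtr replicate 1 and 0.0653 without shCtr replicate 3. Adding 5 or 0.1 FPKM in place of 1 before taking logs gave -0.69 and -2.57. The defining markers of the line were high, with mean levels of 1772 FPKM in shCtr and 1516 FPKM in shZNF148 for VIM, 588 and 429 FPKM for CD44, and 66.6 and 43.5 FPKM for EGFR. CD44 and EGFR passed as lower (limma adjusted p = 0.0185 and 0.02). Of the luminal, blood and endothelial markers, ESR1 was listed at 0 in all 6 samples and PGR, CDH1, PTPRC, PECAM1 and CDH5 were at or below 0.491 FPKM in each, whereas EPCAM was at 10.6 and 9.04 FPKM. The row of ERBB2, also a luminal marker, was the highest of these, averaging 55.5 ± 61.3 FPKM in the control and 57.2 ± 58.7 FPKM in the silenced samples (SD, n = 3). In bulk RNA, fewer cells of a type and less RNA per cell cannot be told apart. Replicate 2 of shZNF148, which had the lowest ZNF148 value, lay farthest from the shCtr mean in 14 of the 20 tested members (70%) and in 50.9% of all tested rows.

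Silencing of ZNF148 was accompanied by changes in both directions among the ligands and the plexins, and by a decrease of 1 of the 2 neuropilins. SEMA6B, SEMA7A and PLXNA1 were upregulated by more than 1.5-fold, and NRP2 and PLXNB1 were downregulated by more than 1.5-fold. SEMA3C, SEMA4B and PLXNB2 were downregulated by less than that. SEMA4G was also under 1.5-fold on the scale used, although its mean FPKM fell to 57.7% of that in shCtr. These statements rest on values taken as log2(FPKM + 1), a scale that understates the change of low genes, fitted with limma over the 11777 rows that averaged 1 FPKM or more. A gene passed at an adjusted p under 0.05 and was called when it also changed by more than 1.5-fold. Of the 31 members 20 were tested, and 9 passed. The 3 that rose compare with a background of 5.46% of all tested rows passing as higher, and the 6 that fell with 8.13% passing as lower. Of the 20 tested members, 3 were called higher, against 1.83% of all tested rows, and 2 were called lower, against 3.66%. The 3 shCtr and 3 shZNF148 values did not overlap for 11 of the 20 tested members (55%), and 41% of all tested rows were apart in the same way. The median log2 fold change was 0.05 over the tested members and 0.01 over all tested rows.

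**Figure D1:**
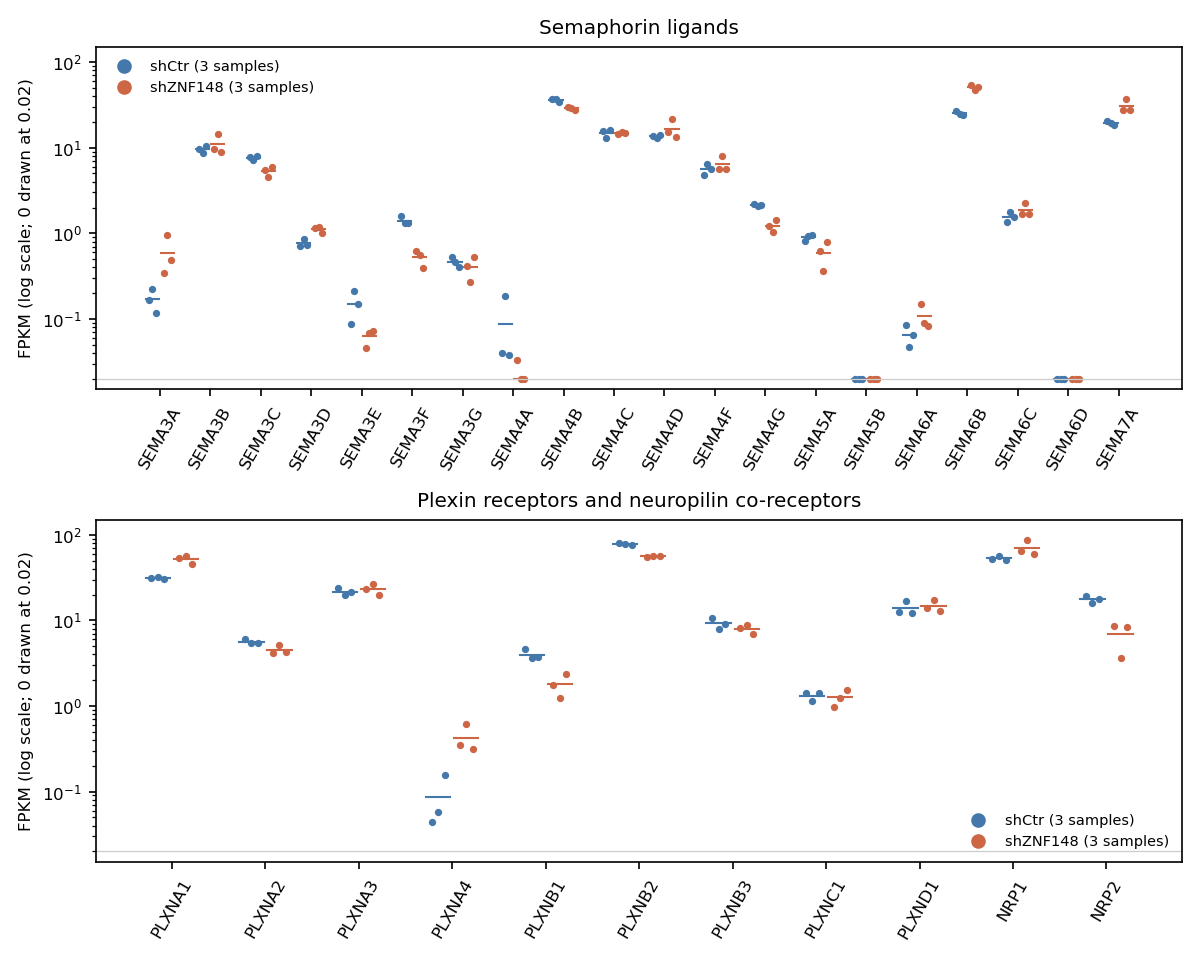
FPKM of all 31 members on a log axis, semaphorins above and plexins and neuropilins below, with 1 point per sample (blue, shCtr; red, shZNF148) and a line at each group mean. Values listed at 0 are drawn at 0.02, as for SEMA5B and SEMA6D in all 6 samples. The shZNF148 points lie above the shCtr points for SEMA6B, SEMA7A and PLXNA1 and below them for NRP2 and PLXNB1.

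**Figure D2:**
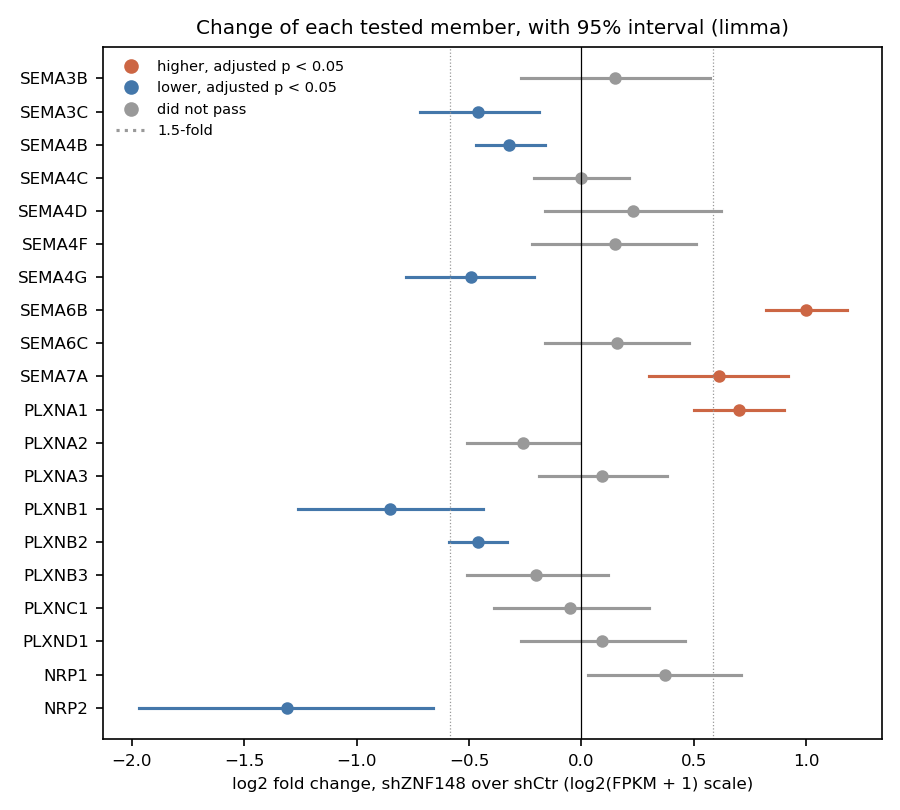
Log2 fold change of shZNF148 over shCtr for the 20 tested members, with the 95% interval from limma. Red and blue mark members that passed as higher or lower, grey those that did not pass, and dotted lines mark a 1.5-fold change. NRP2 has the lowest value, at -1.31, and SEMA6B the highest, at 1.00.

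Because ZNF148 binds G-rich DNA, the 250 bases before each RefSeq transcription start (GRCh38.p14) were searched on both strands for the words GGGGAGGG and GGGGCGGGG, which can overlap each other. Windows were found for 27 of the 31 members. NRP1, SEMA3A, SEMA6A and SEMA6B had none in the table. A word was present for 15 of the 27 members, and for 27.5% of the 27305 genes with a window. A gene counted when any of its windows held a word, and members had more windows per gene than all genes. By window, GGGGAGGG was in 9 of 48 member windows and 12.7% of all 35116, and GGGGCGGGG in 10 of 48 and 15.1%. Member windows also held more G and C, with a median of 64.8% against 58% in all windows. The stretches of 30 bases given here come from the 6 genes with a word among those at an adjusted p under 0.05 (SEMA3F without the filter on low values), read 5′ to 3′ on the strand of the gene with the word in capitals:
PLXNA1, chr3:126983001-126983030, plus strand: gccggCCCCGCCCCCGCCCCGCCCCcgggc
SEMA7A, chr15:74434016-74434045, minus strand: tgcgaGGGGCGGGGGGAGGGGCGGGGtggg
PLXNB1, chr3:48429488-48429517, minus strand: gcggcgggcggGGGGAGGGcagcccggcag
SEMA4B, chr15:90184873-90184902, plus strand: acgggcagagcGGGGCGGGGctgggcgggg
SEMA4G, chr10:100969474-100969503, plus strand: cctccaccaccccccCCCCGCCCCgcctcc
SEMA3F, chr3:50154979-50155008, plus strand: gcgggccgggcGGGGCGGGGctgcgctatg
The words stood before genes that were upregulated (PLXNA1, SEMA7A) and genes that were downregulated (PLXNB1, SEMA4B, SEMA4G). The windows of NRP2, PLXNB2 and SEMA3C, which also passed, held no word. Besides SEMA3F, 9 members that did not pass or were not tested had a word. The windows of NRP2 (chr2:205682251-205682500) and PLXNB2 (chr22:50301670-50301919) lie inside the GENCODE 44 spans of these genes. The bases before the outermost annotated starts of NRP2 and PLXNB2 were therefore not searched. In SEMA7A both words overlap within the stretch, and in PLXNA1 overlapping copies of GGGGCGGGG lie on the opposite strand. A match describes the letters of the window and no binding was measured here.

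The largest increase among the tested ligands was that of SEMA6B (chr19:4542593-4581776, minus strand, GRCh38, GENCODE 44). It encodes a membrane-spanning class 6 semaphorin known as a ligand of plexin A4. SEMA6B was at 26.8, 24.6 and 24.0 FPKM in shCtr and at 54.6, 47.8 and 51.4 FPKM in shZNF148. Every shZNF148 sample lay well above every shCtr sample, and the shZNF148 mean of 51.3 ± 3.38 FPKM (SD, n = 3) was 204% of the shCtr mean of 25.2 ± 1.49 FPKM. The log2 fold change was 1.00 (SE 0.08, 95% interval 0.82 to 1.18, limma adjusted p = 0.00475). It passed in 15 of 15 alternative settings, including the 6 in which 1 sample was left out. No exon of another annotated gene overlaps an exon of SEMA6B. SEMA6C, the other tested member of the class, had group means of 1.57 ± 0.195 and 1.87 ± 0.335 FPKM (SD, n = 3) with overlapping samples, and did not pass (log2 fold change 0.16, 95% interval -0.16 to 0.48, limma adjusted p = 0.442), with 0.06 without shZNF148 replicate 2. SEMA6A stayed at or below 0.149 FPKM in each sample, and SEMA6D was listed at 0 in all 6.

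SEMA7A (chr15:74409289-74433958, minus strand) encodes the class 7 semaphorin, which is held in the membrane by a lipid anchor and binds plexin C1 and beta-1 integrins. Its values were 20.7, 19.5 and 18.5 FPKM in shCtr and 27.5, 37.3 and 27.3 FPKM in shZNF148. The groups did not overlap, and shZNF148 replicate 2 stood above the other two. SEMA7A rose by 0.61 on the log2 scale (SE 0.13, 95% interval 0.30 to 0.92, limma adjusted p = 0.032). The log2 fold change was 0.47, under 1.5-fold, without shZNF148 replicate 2 (limma adjusted p = 0.0167), and 0.53, also under 1.5-fold, when 5 FPKM was added before taking logs. It no longer passed without shCtr replicate 1 (limma adjusted p = 0.103), 2 (0.0904) or 3 (0.115) or without shZNF148 replicate 1 (0.064).

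Class 4 semaphorins, membrane-spanning ligands of which several bind B plexins, held the largest summed level of the ligand classes in shCtr. SEMA4B, the most abundant semaphorin of the shCtr samples (chr15:90160604-90229679, plus strand), was at 37.1, 37.4 and 34.2 FPKM in shCtr and at 29.8, 28.8 and 27.8 FPKM in shZNF148. All shZNF148 values were below all shCtr values. SEMA4B fell by 0.32 on the log2 scale (SE 0.07, limma adjusted p = 0.0303), to 79.6% of the shCtr mean. It passed with shZNF148 replicate 2 left out (limma adjusted p = 0.0356), and did not pass without shCtr replicate 1 (0.119), 2 (0.0874) or 3 (0.0862) or shZNF148 replicate 1 (0.0654) or 3 (0.0616).

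SEMA4G (chr10:100969504-100985871, plus strand), a low-level member of the same class, was at 2.17, 2.06 and 2.14 FPKM in shCtr and at 1.23, 1.03 and 1.42 FPKM in shZNF148. The groups did not overlap, and SEMA4G fell by 0.49 on the log2 scale (SE 0.12, limma adjusted p = 0.0418). Its shZNF148 mean was 57.7% of the shCtr mean, a fall of more than 1.5-fold before 1 FPKM was added. With 1 sample left out the limma adjusted p lay between 0.0501 and 0.125, so it passed in none of those 6 fits. A pseudocount of 5 FPKM gave -0.20 in place of -0.49, and 0.1 FPKM gave -0.76 with a limma adjusted p of 0.0508. SEMA4G overlaps MRPL43 on the other strand, and since the use of strand in counting is not given in the sources used here, reads of both genes may be mixed.

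The remaining class 4 ligands did not pass. SEMA4C, a ligand of plexin B2, averaged 14.9 ± 1.53 FPKM in the control and 14.9 ± 0.249 FPKM in the silenced samples (SD, n = 3), with an interval of -0.21 to 0.21 for the log2 fold change (limma adjusted p = 0.98). SEMA4D, the high-affinity ligand of plexin B1 that is shed from the cell surface, was at 13.8, 13.0 and 14.2 FPKM in shCtr and 15.1, 21.4 and 13.2 FPKM in shZNF148. The groups overlapped, and the log2 fold change was 0.23 (95% interval -0.16 to 0.62, limma adjusted p = 0.36), and 0.04 without shZNF148 replicate 2. SEMA4F, at 5.66 and 6.41 FPKM, also overlapped between groups (log2 fold change 0.15, limma adjusted p = 0.532), with 0.01 without shZNF148 replicate 2. SEMA4A was at or below 0.185 FPKM in each sample and was listed at 0 in shZNF148 replicates 2 and 3.

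Of the 7 secreted class 3 semaphorins, 2 were tested. SEMA3C (chr7:80742538-80922359, minus strand), a ligand that uses either neuropilin and plexin D1, was at 7.87, 7.12 and 7.91 FPKM in shCtr and at 5.45, 4.50 and 5.99 FPKM in shZNF148. Each shZNF148 value lay below each shCtr value, and SEMA3C fell by 0.46 on the log2 scale (SE 0.11, limma adjusted p = 0.043). It passed without shZNF148 replicate 3 (limma adjusted p = 0.0485), and did not pass without shCtr replicate 1 (0.147), 2 (0.0891) or 3 (0.145) or shZNF148 replicate 1 (0.096) or 2 (0.0506). Without the filter on low values the limma adjusted p was 0.0705, and a pseudocount of 5 FPKM gave a log2 fold change of -0.29. SEMA3B, a tumor suppressor candidate of chromosome 3, had means of 9.60 ± 0.915 and 11.0 ± 3.02 FPKM (SD, n = 3) with overlapping samples and did not pass (log2 fold change 0.15, limma adjusted p = 0.578). An antisense transcript, SEMA3B-AS1, overlaps it.

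The other class 3 ligands were too low to be tested. SEMA3F, a repellent that binds neuropilin-2, had a mean of 0.967 FPKM over the 6 samples and lay just outside the filter of 1 FPKM, whereas PLXNC1, at 1.29 FPKM, lay just inside. SEMA3F was at 1.59, 1.31 and 1.32 FPKM in shCtr and at 0.629, 0.561 and 0.389 FPKM in shZNF148. The groups were apart, with a shZNF148 mean at 37.4% of the shCtr mean. When all rows above 0 were fitted without the filter, SEMA3F had a log2 fold change of -0.66 (SE 0.09, limma adjusted p = 0.0229). Its antisense transcript SEMA3F-AS1 overlaps it. SEMA3A, the classical ligand of neuropilin-1, was at 0.164, 0.226 and 0.117 FPKM in shCtr and at 0.346, 0.956 and 0.485 FPKM in shZNF148, and SEMA3D was at 0.701, 0.863 and 0.722 FPKM in shCtr and at 1.16, 1.19 and 1.01 FPKM in shZNF148. In both genes every shZNF148 value lay above every shCtr value, and neither passed in the fit without the filter (limma adjusted p = 0.111 for SEMA3A and 0.0879 for SEMA3D). The shZNF148 mean was 352% of the shCtr mean for SEMA3A and 147% for SEMA3D. SEMA3E and SEMA3G stayed at or below 0.526 FPKM in each sample. Of class 5, SEMA5A stayed at or below 0.955 FPKM in each sample and SEMA5B was listed at 0 in all 6, so 11 members in all, 10 of them semaphorins, were not tested.

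Plexin transcripts spanned a wide range, from PLXNB2 at 77.5 ± 2.10 FPKM (SD, n = 3) in shCtr to PLXNA4 at 0.0857 ± 0.0613 FPKM. PLXNA1 (chr3:126982693-127037389, plus strand), the A plexin that pairs with neuropilins to receive class 3 signals and that binds SEMA6D directly, was at 31.5, 31.8 and 30.5 FPKM in shCtr and at 52.9, 55.8 and 46.1 FPKM in shZNF148. All shZNF148 values were higher, and the shZNF148 mean was 165% of the shCtr mean. PLXNA1 rose by 0.70 on the log2 scale (SE 0.08, 95% interval 0.50 to 0.90, limma adjusted p = 0.0108). It lost the call without shCtr replicate 1 (limma adjusted p = 0.072) or 3 (0.0706) and kept it when any 1 of the other 4 samples was left out.

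The other A plexins did not pass. PLXNA2 was at 6.03, 5.49 and 5.38 FPKM in shCtr and at 4.16, 5.20 and 4.27 FPKM in shZNF148. Its groups were apart, but the log2 fold change of -0.26 did not pass (95% interval -0.51 to -0.01, limma adjusted p = 0.134). PLXNA3 had means of 21.7 ± 1.92 and 23.3 ± 3.44 FPKM (SD, n = 3), overlapping between groups (log2 fold change 0.09, limma adjusted p = 0.615), and shares sequence on the other strand with LAGE3. PLXNA4, the known receptor of SEMA6B and a partner of SEMA3A, was at 0.0436, 0.0574 and 0.156 FPKM in shCtr and at 0.348, 0.614 and 0.314 FPKM in shZNF148. All shZNF148 values of PLXNA4 were above all shCtr values, at levels below the filter, and it did not pass in the fit without the filter (log2 fold change 0.39, limma adjusted p = 0.0569). The shZNF148 mean of PLXNA4 was 496% of the shCtr mean, a change that adding 1 FPKM before taking logs shrinks at such low levels.

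Among the B plexins, which couple to RhoA through exchange factors and bind the receptor kinases MET and ERBB2, PLXNB1 and PLXNB2 fell and PLXNB3 did not pass. PLXNB2 (chr22:50274979-50307646, minus strand), the receptor of SEMA4C and the most abundant plexin, was at 79.4, 77.7 and 75.2 FPKM in shCtr and at 54.8, 56.6 and 56.7 FPKM in shZNF148. The groups were well apart, and PLXNB2 fell by 0.46 on the log2 scale (SE 0.05, limma adjusted p = 0.0108), which is less than 1.5-fold. It did not pass without shCtr replicate 1 (limma adjusted p = 0.072) or 3 (0.0662). PLXNB1 (chr3:48403854-48430086, minus strand), the receptor of SEMA4D, was at 4.59, 3.68 and 3.70 FPKM in shCtr and at 1.78, 1.24 and 2.36 FPKM in shZNF148. The groups did not overlap, and PLXNB1 fell by 0.85 on the log2 scale (SE 0.17, limma adjusted p = 0.0289), with a shZNF148 mean at 44.9% of the shCtr mean. In place of -0.85, a pseudocount of 0.1 FPKM gave -1.15 and 5 FPKM gave -0.41, which is under 1.5-fold. PLXNB1 did not pass without shCtr replicate 1 (limma adjusted p = 0.112), 2 (0.0745) or 3 (0.0944) or shZNF148 replicate 1 (0.0742). PLXNB3, the receptor of SEMA5A, overlapped between groups at 9.24 ± 1.41 and 7.91 ± 0.983 FPKM (SD, n = 3) and did not pass (log2 fold change -0.20, limma adjusted p = 0.331). It shares sequence with SRPK3 on the same strand.

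PLXNC1, the receptor of SEMA7A, was at 1.40, 1.15 and 1.42 FPKM in shCtr and at 0.969, 1.25 and 1.55 FPKM in shZNF148. The groups overlapped (log2 fold change -0.05, 95% interval -0.39 to 0.30, limma adjusted p = 0.847), and CEP83 overlaps PLXNC1 on the other strand. PLXND1, the receptor of SEMA3E, had means of 13.8 ± 2.57 and 14.8 ± 2.40 FPKM (SD, n = 3), also overlapping (log2 fold change 0.09, limma adjusted p = 0.697).

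Of the neuropilins, NRP2 passed and NRP1 did not. NRP2 (chr2:205681990-205798133, plus strand), the co-receptor of SEMA3F and of VEGF-C, was at 19.2, 15.9 and 17.7 FPKM in shCtr and at 8.52, 3.67 and 8.38 FPKM in shZNF148. No shZNF148 value reached the shCtr range, and shZNF148 replicate 2 was the lowest of all. NRP2 fell by 1.31 on the log2 scale (SE 0.28, 95% interval -1.97 to -0.66, limma adjusted p = 0.0313), to 38.9% of the shCtr mean. The log2 fold change was -0.97 without shZNF148 replicate 2 (limma adjusted p = 0.00649). With all 6 samples this was the largest change of any tested member, whereas without that replicate SEMA6B, at 1.05, changed more. NRP2 did not pass without shCtr replicate 1 (limma adjusted p = 0.122), 2 (0.084) or 3 (0.11) or shZNF148 replicate 1 (0.0587), and without the filter on low values it had a limma adjusted p of 0.05 and did not pass.

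NRP1 (chr10:33177492-33336262, minus strand), the co-receptor of SEMA3A and VEGF-A, was the more abundant neuropilin, at 51.6, 56.9 and 50.9 FPKM in shCtr and at 63.8, 86.4 and 59.1 FPKM in shZNF148. Its groups did not overlap, with shZNF148 replicate 2 the highest sample. The log2 fold change of 0.37 did not pass (95% interval 0.03 to 0.71, limma adjusted p = 0.124), nor did it pass in any of 15 alternative settings, and was 0.21 without shZNF148 replicate 2. The ratio of NRP1 to NRP2 FPKM was 2.69, 3.58 and 2.87 in shCtr and 7.49, 23.5 and 7.06 in shZNF148. All 3 shZNF148 ratios were higher than all 3 shCtr ratios, with a difference of 1.83 in the mean log2 ratio and an exact two-sided permutation p of 0.1, the smallest that 3 samples against 3 can give. Without shZNF148 replicate 2 the difference was 1.27. NRP2 made up 24.9 ± 2.73% of the summed neuropilin FPKM in shCtr and 9.42 ± 4.64% in shZNF148 (SD, n = 3), whereas the sum itself overlapped between groups, at 70.7 ± 2.13 and 76.6 ± 11.9 FPKM (exact two-sided permutation p = 0.7). Both genes have a non-coding transcript on the other strand.

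**Figure D3:**
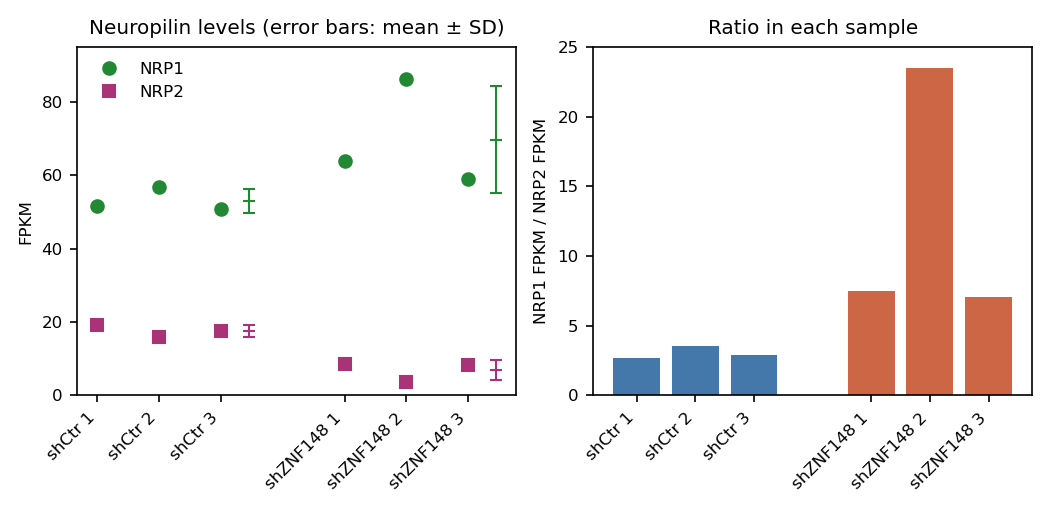
Left, FPKM of NRP1 (circles) and NRP2 (squares) in each of the 6 samples, with the mean and SD of each group of 3 drawn to the right of its points. Right, the NRP1 to NRP2 FPKM ratio in each sample, from 2.69 to 3.58 in shCtr and from 7.06 to 23.5 in shZNF148.

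With FPKM being per length, the make-up of each family can be read within each sample. Summed plexin FPKM was 170, 165 and 159 in shCtr and 160, 174 and 151 in shZNF148, overlapping between groups (exact two-sided permutation p = 0.8). Within that sum the share of PLXNA1 was 18.5, 19.3 and 19.2% in shCtr and 33.0, 32.1 and 30.5% in shZNF148. The share of PLXNB2 was 46.7, 47.2 and 47.3% in shCtr and 34.2, 32.6 and 37.5% in shZNF148. PLXNB2 was thus 2.52, 2.45 and 2.46 times as abundant as PLXNA1 in shCtr and 1.04, 1.02 and 1.23 times in shZNF148, so the order of the pair was kept while all 3 ratios were lower upon silencing. This pair was chosen after its values were seen, and no test is given.

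Summed semaphorin FPKM was 144, 138 and 138 in shCtr and 169, 184 and 162 in shZNF148, higher in every shZNF148 sample (exact two-sided permutation p = 0.1). SEMA4B was the most abundant semaphorin in each shCtr sample and SEMA6B in each shZNF148 sample. The ratio of SEMA6B to SEMA4B was 0.724, 0.660 and 0.701 in shCtr and 1.83, 1.66 and 1.85 in shZNF148, so the order of the pair was turned in all 3 shZNF148 samples. Class 4 ligands held 51.9 ± 0.691% of the summed semaphorin FPKM in shCtr and 39.6 ± 0.697% in shZNF148 (SD, n = 3). Class 6 ligands held 19.1 ± 0.569% and 31.2 ± 3.43%, and SEMA7A alone 14.0 ± 0.558% and 17.8 ± 2.14%. Shares of 1 sum depend on each other, so a higher share of SEMA6B lowers the others.

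**Figure D4:**
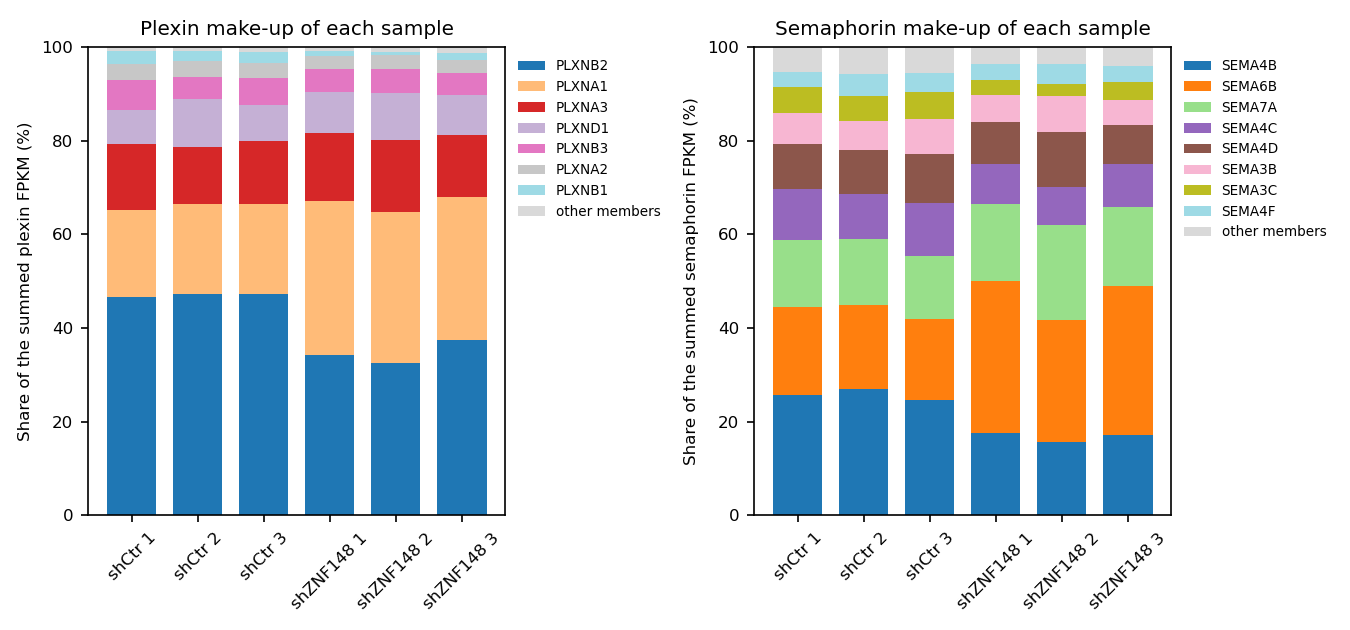
Stacked shares, in % of the summed FPKM of the family in each sample, for plexins (left) and semaphorins (right). PLXNA1 takes from 18.5 to 19.3% in shCtr and from 30.5 to 33.0% in shZNF148, and SEMA6B from 17.3 to 18.7% and from 26.0 to 32.4%.

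Ligands were then set beside their known receptors, in 29 textbook pairs over 18 ligands. SEMA4B, which passed as lower, and SEMA4F had no pair in the list, and the counts depend on which pairs were listed. Ligand and receptor were both tested in 11 pairs. In 2 of the 11 both passed, each time as lower, for SEMA3C with NRP2 and SEMA4G with PLXNB2. In 8 pairs 1 of the partners passed, and in 1, SEMA3B with NRP1, neither did. No pair had both partners passing as higher. SEMA7A rose while PLXNC1 had a log2 fold change of -0.05, and PLXNA1 rose while its tested class 6 partner SEMA6C had 0.16. PLXNB1 fell while SEMA4D had 0.23, and PLXNB2 fell while SEMA4C had 0.00. The receptor of SEMA6B in the list, PLXNA4, was below the filter at 0.425 ± 0.164 FPKM in shZNF148 (SD, n = 3). Pairs that share a gene share its values.

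**Figure D5:**
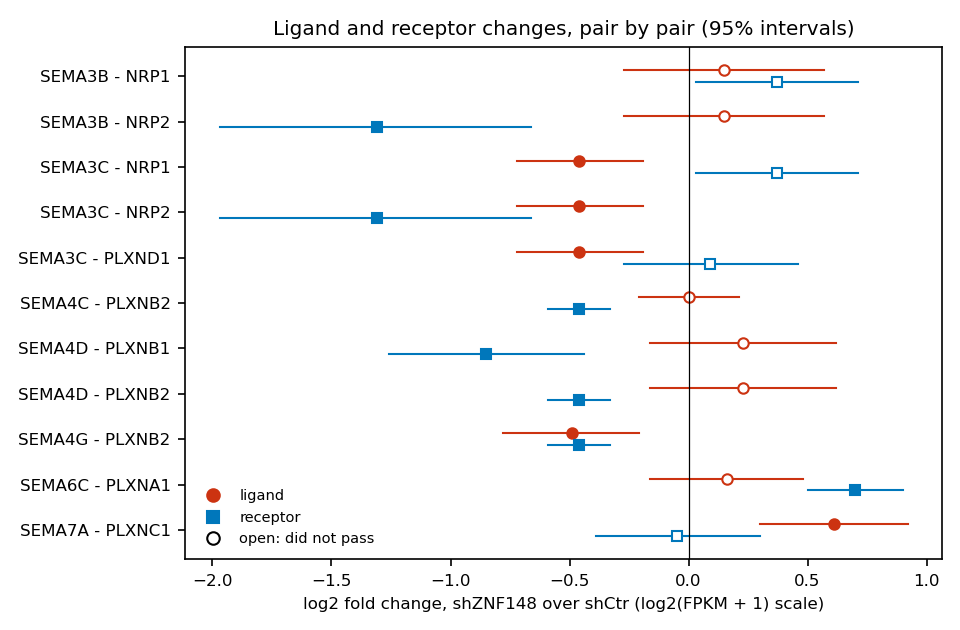
Log2 fold change with 95% interval for the ligand (circle) and receptor (square) of the 11 pairs in which both were tested, filled where the gene passed and open where it did not. Both symbols are filled on the lower side for SEMA3C with NRP2 and SEMA4G with PLXNB2.

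The genes that work with these receptors were counted in a list of 59 other co-receptors, VEGF ligands, processing proteases, GTPases, exchange factors and kinases. Of these 58 were in the table and 45 were tested, of which 2 rose and 6 fell, so that 17.8% passed, beside 13.6% of all tested rows (5.46% as higher and 8.13% as lower). The list median was -0.13 on the log2 scale. The groups did not overlap for 27 of the 45 (60%), beside 41% of all tested rows. LIMK1, the kinase that phosphorylates cofilin, was at 51.7, 51.1 and 49.6 FPKM in shCtr and at 82.5, 93.0 and 75.1 FPKM in shZNF148. No shZNF148 value reached the shCtr range, and LIMK1 rose by 0.70 on the log2 scale (limma adjusted p = 0.0111). ROCK2, a kinase that acts on the actin cytoskeleton, rose by 0.32 (limma adjusted p = 0.0252).

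MET, the hepatocyte growth factor receptor that associates with B plexins, was at 39.9, 42.4 and 40.5 FPKM in shCtr and at 27.6, 21.5 and 26.8 FPKM in shZNF148. The groups were apart, and MET fell by 0.68 on the log2 scale (limma adjusted p = 0.0168). FYN, a Src-family kinase that acts with plexin A receptors, was at 14.3, 18.2 and 14.3 FPKM in shCtr and at 8.26, 5.91 and 8.53 FPKM in shZNF148. All shZNF148 values were lower, and FYN fell by 0.96 (limma adjusted p = 0.0187). LIMK1 was the only partner called higher and MET and FYN were the 2 called lower, beside 1.83% and 3.66% of all tested rows. Without shCtr replicate 1 or 3 no partner was called in either direction, without shCtr replicate 2 none was called lower, and without shZNF148 replicate 1 or 2 the count called lower was 1.

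Of the 11 GTPases known to bind plexins 9 were tested, and all 9 had fold changes below 0 while 3 passed as lower. Some of the 9 were near 0, as RRAS at -0.02 (limma adjusted p = 0.931) and RAP1A at -0.03 (limma adjusted p = 0.865). The groups overlapped for 5 of the 9, beside 6944 of all 11777 tested rows. Over all 11777 tested rows 5785 were below 0 and 8.13% passed as lower. RAC1 fell by 0.40 (limma adjusted p = 0.0219), RND3 by 0.35 (limma adjusted p = 0.0273), and RHOA by 0.23 (limma adjusted p = 0.0444) on the log2 scale. PAK1, a kinase activated by RAC1, fell by 0.32 (limma adjusted p = 0.0305). None of the tested VEGF ligands passed, with VEGFA, which binds neuropilin-1, at 129 ± 16.1 and 103 ± 8.74 FPKM and VEGFC, which binds neuropilin-2, at 39.9 ± 2.49 and 43.9 ± 2.35 FPKM (SD, n = 3). The VEGF receptors KDR, FLT1 and FLT4 were at or below 0.475 FPKM in each sample. FURIN, the protease that cleaves class 3 semaphorins, was at 44.4 ± 1.10 and 51.9 ± 1.88 FPKM (SD, n = 3) and did not pass (log2 fold change 0.22, limma adjusted p = 0.052). CFL1, which encodes cofilin, was at 1275 ± 34.2 and 1280 ± 36.7 FPKM (SD, n = 3), with an interval of -0.14 to 0.15 for its log2 fold change. The row holding ERBB2, which is joined with a microRNA in the table, was at 126 FPKM in shCtr replicate 2 and 125 FPKM in shZNF148 replicate 2 and between 20.1 and 24.8 FPKM in the other 4 samples.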

How the data were processed

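The 6 samples are the columns of 1 table of normalised FPKM deposited by the authors, with 0 unused columns. The submitters' processing notes name bcl2fastq 2.17.1.14, TopHat2 2.0.14, Cufflinks 2.2.1 and Cuffnorm 2.2.1 with builds hg18 and hg19, whereas the study's methods name Salmon on GRCh38. Which of these made the table, and whether strand was used, is not given in the sources used here. FPKM are not counts, so no count test was run, depth is unknown, and a value of 0 can be a failed estimate. The 11777 of 24108 rows that averaged 1 FPKM or more were transformed to log2(FPKM + 1) and compared between conditions by limma 3.58.1 (R 4.3.3) with a variance trend and no covariate, and p-values were adjusted by Benjamini-Hochberg over all tested rows. Genes were called at an adjusted p under 0.05 and more than 1.5-fold, the thresholds of the study. The NRP1 to NRP2 ratio and the family sums were compared by exact two-sided permutation tests. The fit was tested on simulated data.

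Groups came from the sample labels. The members, the partner list, the ligand and receptor pairs and the named genes were chosen with earlier results of these data known, and the SEMA6B to SEMA4B and PLXNB2 to PLXNA1 ratios and the shares after their values were seen. All members are accounted for, those with a mean of at least 1 FPKM with their values. Of the partners, called genes, other genes that passed and some further genes were named. The most abundant gene of a role was not always among them. MMP14 among the proteases and ITGB1 among the other receptors were left out, and neither passed (limma adjusted p = 0.123 and 0.0971). Of the 59 partners, VEGFD was not matched. Positions were looked up by symbol in GENCODE 44 (GRCh38) and promoter windows in RefSeq (GRCh38.p14). The hairpin sequence was read from the study's supplementary table. Alternatives were 3 changes of filter or merging of rows, other pseudocounts, median scaling, quantile normalization, no variance trend, the replicate number as a block, and leaving out each sample.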

Additional observations from a re-analysis of the deposited data

How the results depend on the processing

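SEMA6B passed under all 15 alternatives. The count of members called lower went from 2 to 1 with a minimum mean of 3 FPKM, which removes PLXNB1 from the tested rows, and to 1 with a pseudocount of 5 FPKM, which shrinks the change of low genes. Leaving out 1 sample gave 1 to 3 members called higher and 0 to 2 called lower, 0 to 1 partners called higher and 0 to 2 called lower, a ZNF148 log2 fold change of -1.74 to -1.45, and a difference in the log2 NRP1 to NRP2 ratio of 1.27 to 2.13. Changes near 0 turned sign. SEMA4C, at 0.00, was at -0.00 with median scaling, -0.01 with quantile normalization, -0.08 without shCtr replicate 2 and -0.01 without shZNF148 replicate 2. With 1 sample left out, PLXNC1 ranged from -0.14 to 0.05, PLXNA3 from -0.01 to 0.20, PLXND1 from -0.03 to 0.23 and SEMA3B from -0.05 to 0.27. The cause was not tested.

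After subtracting group means, samples with equal numbers correlated at 0.00104, -0.0881 and 0.0304. Not every sample correlated best with its own number. These correlations cannot decide whether equal numbers mark samples handled together, because the deviations within a group are tied to each other. The ERBB2 row was at 126 and 125 FPKM in replicate 2 of shCtr and of shZNF148, and at or below 24.8 FPKM in the others. The source of this was not tested. With the replicate number as a block (replicate block), members called higher went from 3 to 2 and members called lower from 2 to 1, and partners called lower from 2 to 1. The limma adjusted p was 0.0619 for SEMA7A, 0.0612 for PLXNB1, 0.0666 for SEMA4B, 0.0659 for SEMA3C and 0.094 for SEMA4G, and SEMA6B, PLXNA1, PLXNB2 and NRP2 still passed. The unknown depth limits what can be said of the 11 members below 1 FPKM.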
